A study of Homo sapiens with 24 samples.

Results

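BT-474 cells that carried a control siRNA and were kept in 10 nM estrogen for 24 h were compared with the same cells kept in it for 4 h. The comparison used 6 of the 24 arrays of the study, 3 at 24 h and 3 at 4 h, chosen by the siRNA, treatment and time that the sample labels give. BT-474 is an established human breast cancer line that carries the estrogen receptor and an amplified ERBB2 (HER2) gene. The study asked how HER2 signalling, the coactivator SRC-3 and the factor E2F1 bear on DNA synthesis and growth, and crossed control or HER2 siRNA with estrogen or its ethanol vehicle at both times, with 3 arrays in each of 8 groups. The groups used here besides the main pair were control siRNA with vehicle at 24 h and at 4 h, and HER2 siRNA with 10 nM estrogen at 24 h and at 4 h. All groups had received an siRNA, all were of 1 cell line, and the labels do not say whether the 3 arrays of a group came from separate cultures, so each p-value measures the spread between arrays, which may be technical.

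Estrogen acts through the estrogen receptor, a nuclear receptor that on binding the hormone attaches to DNA and changes the transcription of nearby genes. Some target genes respond within hours, among them regulators such as MYC, and others build up over a day as secreted proteins, receptors and cell-cycle machinery accumulate. In breast cancer cells that depend on the hormone, estrogen also brings resting cells into the cell cycle, which starts with the E2F-driven genes of DNA synthesis and continues with the genes of mitosis.

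Total RNA was labelled from its 3′ end and hybridised to arrays of 54675 probe sets. Each gene is given by 1 probe set, the one with the highest mean over the 24 arrays, as a log2 level. Of 19775 genes, 14335 reached a log2 level of 5 on at least 3 arrays and were tested with limma. A difference is the mean log2 level at 24 h minus that at 4 h, given with its standard error (SE), and a gene was called at a Benjamini-Hochberg adjusted p under 0.05 over all genes tested. The levels of one gene cannot be set against those of another, since probe sets differ in brightness per molecule.

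The 6 arrays resembled each other closely. Pearson's r over the genes was 0.9929 to 0.9958 among the 24 h arrays, 0.995 to 0.9954 among the 4 h arrays and 0.9883 to 0.9932 between the times. All 21 luminal epithelial genes on a marker list passed the filter, with a median log2 level of 10.84 to 11.06 on the 24 h arrays and 10.89 to 10.93 on the 4 h arrays. Of 14 basal and mesenchymal genes, 6 passed, VIM, TWIST1, FN1, CDH2, ACTA2 and SNAI1. Below the filter were 5, KRT5, KRT14, SNAI2, ZEB1 and ZEB2, and 3 lacked a probe set of 1 symbol. The median of the 6 that passed was 5.48 to 5.53 at 24 h and 5.55 to 6.05 at 4 h. Their means at 24 h ran from 4.63 to 9.68. Of 16 genes of blood, vessel and stromal cells, 7 passed, COL1A1, COL1A2, DCN, CD3E, LYZ, PECAM1 and VWF, with means at 24 h of 4.35 in LYZ to 9.12 in COL1A1, and 7 were below the filter, PTPRC, CD14, CDH5, KDR, PDGFRB, COL3A1 and LUM. ERBB2 stood at 13.41, 13.47 and 13.39 on the 24 h arrays and at 13.63, 13.57 and 13.49 on the 4 h arrays, a difference of -0.14 that did not pass the test (adjusted p = 0.5442). The gap between the 3′ and 5′ probe sets of ACTB, a sign of RNA integrity, was 1.17 ± 0.13 at 24 h and 0.99 ± 0.03 at 4 h (log2, SD, n = 3 each; exact permutation p = 0.1, two-sided, the smallest that 3 against 3 arrays allow), and that of GAPDH was 0.27 ± 0.01 at 24 h and 0.29 ± 0.07 at 4 h (exact permutation p = 0.9). With the ACTB gap as a covariate 972 genes were called, against 855 without it.

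Between 24 h and 4 h of estrogen, 855 genes were called (5.96% of those tested), of which 363 rose (2.53%) and 492 fell (3.43%). Most changes were small. Every 24 h array lay above every 4 h array in 10.7% of all genes tested and below in 15.3%, and the genes named for the largest changes were taken from these. The difference reached 2-fold in 24 of the genes that rose and in 14 of those that fell. Among the largest rises were those of the estrogen-regulated genes TCN1, SLC6A14, TFF1, GREB1, SUSD3 and PGR, and the largest falls were in CYP1A1 and CYP1B1, enzymes that oxidise aromatic compounds and estrogens. Leaving out 1 array changed the number of calls by more than 1.5 times for 5 of the 6 arrays. The count was 371 without 24 h replicate 2, 296 without 24 h replicate 3, 378 without 4 h replicate 1, 374 without 4 h replicate 2 and 535 without 4 h replicate 3.

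Time in culture also passes without the hormone, so the vehicle arrays were compared in the same way. There 112 genes were called (0.781%), 52 higher and 60 lower at 24 h, and leaving out single arrays brought this to between 6 and 60. The vehicle comparison shares no array with the estrogen one. Of the 363 genes that rose with estrogen, 8 also rose with vehicle, which is 2.2% of the estrogen list and 15.4% of the vehicle list. Of the 492 that fell with estrogen, 31 also fell with vehicle, 6.3% of the estrogen list and 51.7% of the vehicle list. The median difference of the 363 genes was 0.44 in estrogen and 0.04 in vehicle, and that of the 492 genes was -0.41 in estrogen and -0.11 in vehicle. These genes were chosen on the estrogen arrays, which by itself enlarges their estrogen medians and not the vehicle ones. Over all genes tested the 2 sets of differences had Pearson's r of 0.316 and Spearman's rho of 0.238, values across genes, which are not independent replicates.

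**Figure D1:**
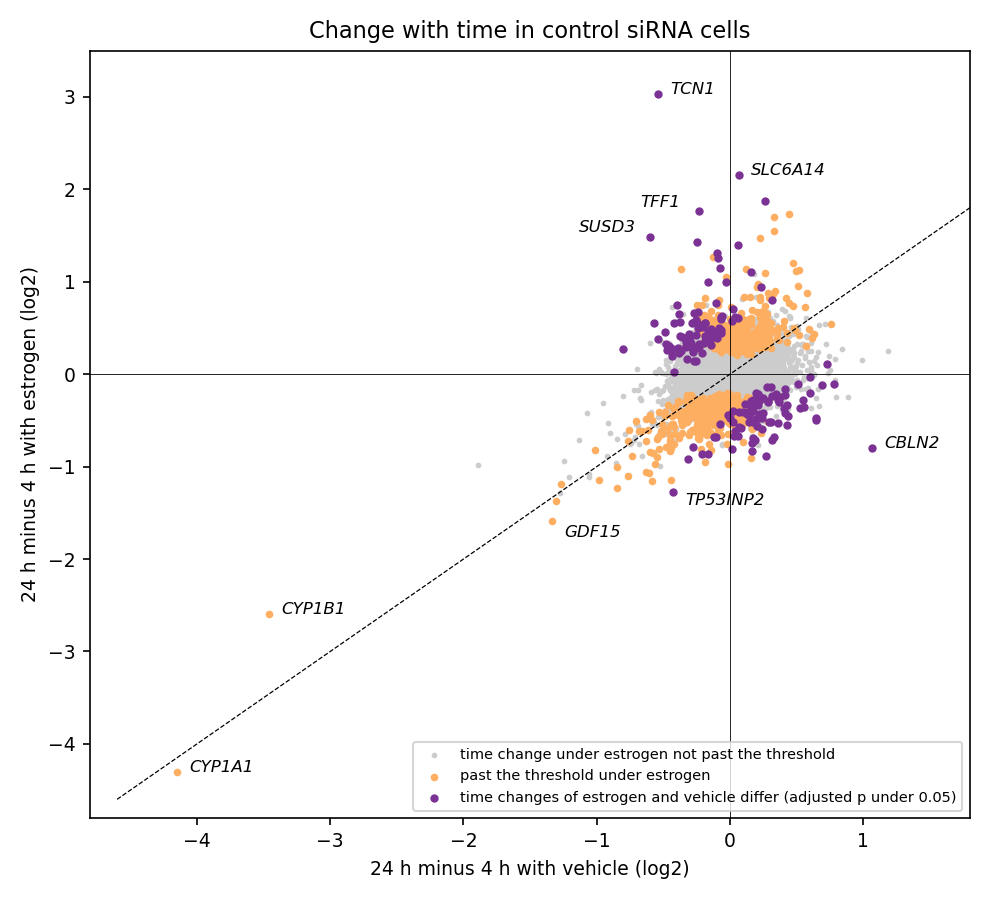
Log2 difference, 24 h minus 4 h, of each gene tested with 10 nM estrogen (y axis) against vehicle (x axis), both with control siRNA; orange marks genes called with estrogen, purple those whose time changes differed between estrogen and vehicle, and the dashed line equal changes. TCN1, TFF1 and SUSD3 lie high with a vehicle difference below 0, while CYP1A1, CYP1B1 and GDF15 lie low near the dashed line.

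Whether a gene moved differently with estrogen than with vehicle was tested as the difference of the 2 time changes, over all genes. It passed for 183 genes (1.28%), 97 with the higher change in estrogen (0.677%) and 86 with the lower (0.6%). The 24 genes that rose and the 14 that fell at least 2-fold with estrogen were chosen on the estrogen arrays. Among the 24 this difference passed in 12, and in none of the 24 was the vehicle change 0.5 times as large or more. Among the 14 that fell at least 2-fold, vehicle arrays moved the same way in all 14, by at least 0.5 times as much in 12, and the difference passed in 1, TP53INP2. The number of genes was 120 without vehicle 24 h replicate 1, 117 without vehicle 24 h replicate 3, 91 without estrogen 24 h replicate 3, 96 without vehicle 4 h replicate 3 and 108 without estrogen 4 h replicate 2.

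Where a gene has several probe sets, the mean of its probe sets was tried in place of the brightest one, and its value is given where it ended a call or moved a value by more than 1.5 times. The gene lists were chosen with earlier results of these data known, so counts over them are not independent support. Each count stands beside shares over all genes of 2.53% that rose and 3.43% that fell with estrogen. Of 40 tested genes on a list of known estrogen-induced genes, which holds TCN1, SLC6A14, TFF1, GREB1, SUSD3 and PGR, 16 rose and none fell. Their median difference was 0.45, against -0.02 over all genes tested. With vehicle none of the 40 rose and 2 fell, with a median of -0.03. The difference of the time changes passed in 8 of the 40, all higher with estrogen. The 16 became 10 without 24 h replicate 2, 9 without 24 h replicate 3 and 10 without 4 h replicate 1, and the 8 became 5 without 24 h replicate 3.

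TCN1, a secreted carrier of vitamin B12, had log2 levels of 11.09, 11.11 and 11.13 at 24 h, against 8.52, 7.78 and 7.92 at 4 h. With vehicle it stood at 7.46, 6.84 and 7.01 at 24 h and at 8.49, 7.10 and 7.36 at 4 h. Only the estrogen 24 h arrays were high, and the 4 h estrogen arrays lay among the vehicle ones or just above them. The difference was 3.03 ± 0.26, an 8.19-fold rise (adjusted p = 1.759e-06, limma), and it exceeded the vehicle change by 3.58 ± 0.37 (adjusted p = 3.037e-05).

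TFF1, a small secreted trefoil protein and a standard marker of estrogen action, had levels of 13.78, 14.10 and 14.00 at 24 h and of 11.94, 12.33 and 12.33 at 4 h. The groups were well apart, by 1.76 ± 0.16 or 3.39-fold (adjusted p = 1.759e-06), and the vehicle change was -0.23. SUSD3, a membrane protein with a sushi domain, was at 8.14, 7.98 and 8.28 at 24 h, against 6.55, 6.65 and 6.73 at 4 h. It rose by 1.49 ± 0.14 with estrogen and fell by 0.60 with vehicle (adjusted p = 0.0392), so that the time changes differed by 2.09 (adjusted p = 6.107e-06). The mean of the SUSD3 probe sets rose by 0.79, with a difference of 1.09 that passed. The amino acid transporter SLC6A14 was at 10.13, 10.41 and 10.56 at 24 h and at 7.85, 8.45 and 8.34 at 4 h. Its rise of 2.16 ± 0.23, or 4.46-fold, exceeded the vehicle change of 0.07 by 2.09 (adjusted p = 0.002884).

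PGR, the progesterone receptor, had levels of 12.35, 12.57 and 12.84 at 24 h, against 10.65, 11.15 and 11.53 at 4 h. It rose by 1.48 ± 0.26 (adjusted p = 0.001442), and the test against the vehicle change of 0.23 missed the threshold (difference 1.25, adjusted p = 0.09443). GREB1, an estrogen-induced protein that binds the receptor, stood at 11.21, 11.08 and 11.44 at 24 h and at 9.03, 9.76 and 9.84 at 4 h. It rose by 1.70 ± 0.27 (adjusted p = 0.000629), and its vehicle change was 0.33 (adjusted p of the difference 0.08175). The mean of the GREB1 probe sets rose by 1.065. The growth factor binding protein IGFBP4 rose by 0.94 ± 0.11 (adjusted p = 2.679e-05), with levels of 9.43, 9.50 and 9.54 at 24 h and of 8.48, 8.53 and 8.64 at 4 h. AGR3, a member of the protein disulfide isomerase family, rose by 1.31 ± 0.20 (adjusted p = 0.0004266), which exceeded its vehicle change by 1.41 (adjusted p = 0.01227). Its 4 h arrays, at 3.83, 4.12 and 3.75, lay below the log2 level of 5 used as the filter.

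The time change did not pass in 24 of the 40, and in 6 of the 40 the difference was below 0, down to -0.42. Of the 24, 2 are described here, MYC and RARA, and they do not stand for the others, whose levels are not given. In both, the levels with estrogen lay above those with vehicle at both times. MYC, a growth regulator, was at 9.72, 10.09 and 9.98 at 24 h and at 9.33, 9.92 and 9.82 at 4 h with estrogen, against 7.23, 7.07 and 6.72 at 24 h and 7.67, 7.46 and 7.04 at 4 h with vehicle. All 6 estrogen arrays lay above all 6 vehicle arrays, and the estrogen groups overlapped each other (difference 0.24 ± 0.24, adjusted p = 0.643). RARA, a retinoic acid receptor, also lay above the vehicle arrays on all 6 estrogen arrays, with 8.55, 8.64 and 8.60 at 24 h and 8.12, 8.38 and 8.48 at 4 h with estrogen, and 7.43, 7.29 and 7.22 at 24 h and 7.20, 7.21 and 7.02 at 4 h with vehicle. Its 24 h arrays lay above its 4 h arrays, by 0.27 ± 0.10 (adjusted p = 0.1092). The receptor gene ESR1 itself differed by 0.23 between the times (adjusted p = 0.4386). NCOA3, which encodes SRC-3, was not analysed here.

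**Figure D2:**
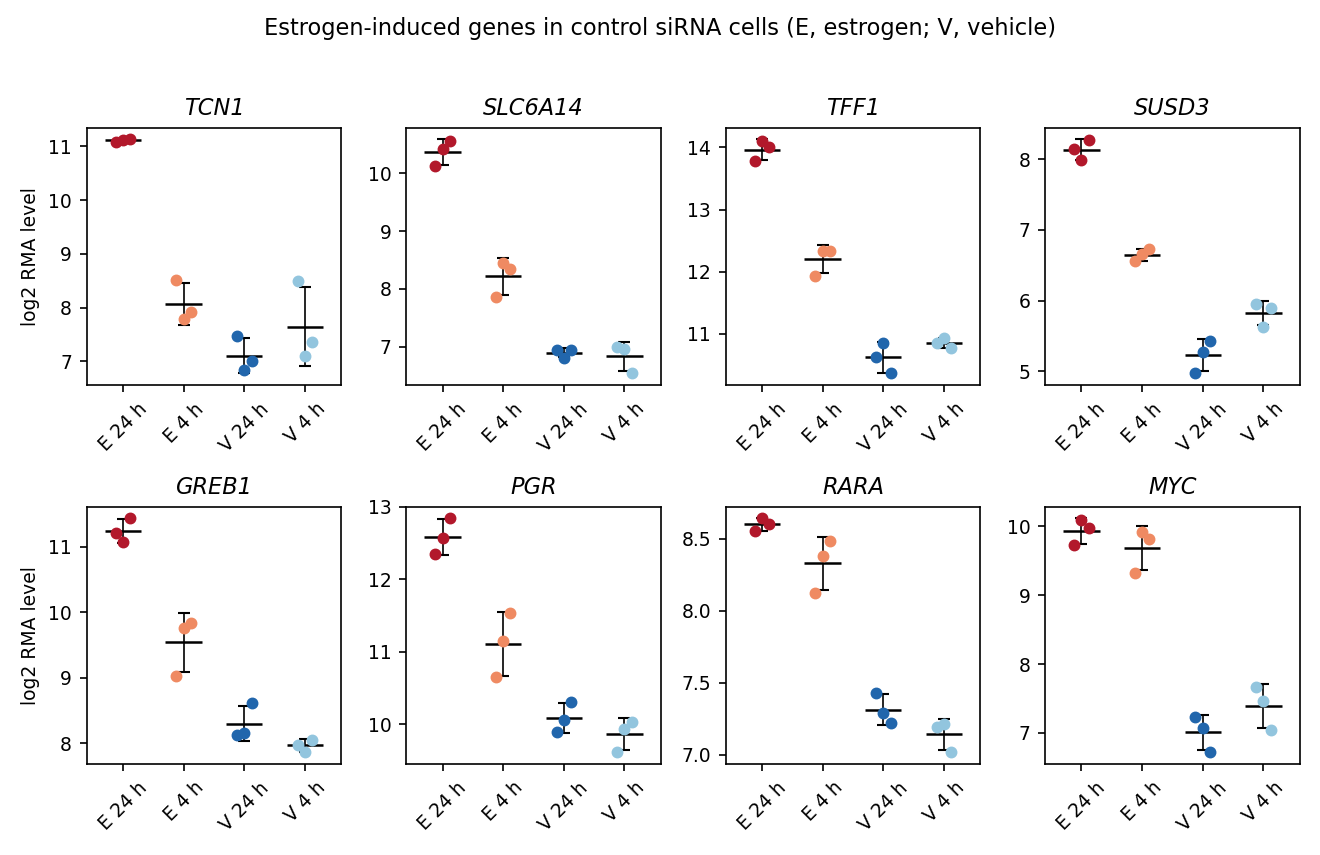
Log2 level of 6 genes that rose between 4 h and 24 h of estrogen, and of RARA and MYC, which did not pass that test, on each of the control siRNA arrays, with estrogen and vehicle at 24 h and 4 h; points are single arrays, and lines and bars are means ± SD (n = 3). TCN1, TFF1 and SUSD3 are highest with estrogen at 24 h, with no overlap with the other groups, whereas the MYC levels at 24 h and 4 h of estrogen overlap.

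Large rises were seen in other genes too. KLK11 and KLK12, secreted serine proteases of the kallikrein family, rose by 1.43 ± 0.18 (adjusted p = 6.271e-05) and 1.26 ± 0.15 (adjusted p = 3.94e-05). KLK11 levels were 7.08, 7.69 and 7.91 at 24 h, against 6.07, 6.20 and 6.12 at 4 h, so the groups did not overlap while the 24 h arrays spread more widely. BRINP2, a gene known from neurons, was at 7.25, 8.12 and 8.02 at 24 h and at 5.45, 6.40 and 5.91 at 4 h, and rose by 1.88 ± 0.25 (adjusted p = 0.0001362). RGS7, a regulator of G protein signalling, rose by 1.73 ± 0.33 (adjusted p = 0.003817), with 24 h replicate 1 at 5.64 and the other 24 h arrays at 6.98 and 6.91, above 4.57, 4.94 and 4.83 at 4 h, levels that are under the filter level of 5. COL12A1, a collagen chain, rose by 1.54 ± 0.32 (adjusted p = 0.006046), and MAN1A1, a Golgi mannosidase that trims N-glycans, by 1.40 ± 0.17 (adjusted p = 3.94e-05). The change exceeded that with vehicle in KLK11 (by 1.68, adjusted p = 0.002503), KLK12 (by 1.35, adjusted p = 0.003289) and MAN1A1 (by 1.34, adjusted p = 0.00546), and this test missed the threshold in RGS7 (adjusted p = 0.2282) and COL12A1 (adjusted p = 0.2378). HERC6, an interferon-inducible ubiquitin ligase family member, rose by 1.13 ± 0.14 (adjusted p = 5.84e-05), and it was the only one of 20 interferon genes tested that rose, while IRF9 fell by 0.51, which was lost without 4 h replicate 2. The mean of the HERC6 probe sets rose by 0.55.

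Of 46 DNA replication genes tested, 18 rose with estrogen, none fell and 28 did not pass, where 2.53% of all genes rose. A difference above 0 was seen in 43, with a median of 0.36 against -0.02 over all genes. With vehicle none rose, 1 fell and the median was -0.20. The difference of the time changes passed in 15 of the 46, all higher with estrogen, against 0.677% of all genes. In bulk RNA a larger share of cells in S phase and more RNA per cell cannot be told apart. Over 21 other settings of the processing or of the arrays used, the count of 18 ranged from 7 to 30. Over 27 such settings the count of 15 ranged from 7 to 28. The 18 became 8 without 24 h replicate 2, 10 without 24 h replicate 3 and 7 without 4 h replicate 1, and the 15 became 9 without vehicle 4 h replicate 3, 9 without estrogen 4 h replicate 1 and 7 without the 3 arrays whose label numbers stand apart.

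MCM2 and MCM6 are subunits of the helicase that opens DNA at replication origins. MCM2 was at 9.89, 9.96 and 10.16 at 24 h and at 9.32, 9.44 and 9.48 at 4 h, and MCM6 at 11.28, 11.24 and 11.28 at 24 h and at 10.70, 10.98 and 10.89 at 4 h. In both genes every 24 h array lay above every 4 h array. MCM2 rose by 0.59 ± 0.11 with estrogen (adjusted p = 0.001884), where the vehicle change was -0.26, and the time changes differed by 0.85 ± 0.15 (adjusted p = 0.005084). MCM6 rose by 0.41 ± 0.08 (adjusted p = 0.004336), where the vehicle change was -0.30, and the time changes differed by 0.71 (adjusted p = 0.003289).

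POLA1, the catalytic subunit of the polymerase that starts each new strand, stood at 8.95, 9.21 and 9.14 at 24 h, against 8.39, 8.57 and 8.62 at 4 h, and rose by 0.57 ± 0.09 (adjusted p = 0.0005372). RFC3, part of the loader of the PCNA clamp, stood at 9.60, 9.76 and 9.91 at 24 h and at 9.18, 9.18 and 9.19 at 4 h, and rose by 0.57 ± 0.11 (adjusted p = 0.004209). The 4 h arrays of RFC3 were close together, and all the 24 h arrays lay above them. DSCC1, of an alternative clamp loader, rose by 0.56 ± 0.11 (adjusted p = 0.005089; 0.28 with the mean of its probe sets, which passed), and TIPIN, which stabilises stalled forks, by 0.45 ± 0.08 (adjusted p = 0.003116). Members that did not pass included PCNA itself (0.16), CDC6 (0.48), MCM10 (0.66, adjusted p = 0.09829), RFC5 (-0.29), GINS4 (-0.12) and CHTF18 (-0.02).

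The promoters of these genes are known for sites of E2F factors, and the stretches below are shown because each holds such letters in a replication gene that rose. The letters searched in the 250 bases before the first listed start of each gene were TTTCCCGC, TTTCGCGC, TTTGCCGC and TTTGGCGC, on both strands, and matches may overlap. The sequences are from RefSeq (GRCh38.p14), 5′ to 3′ on the gene's strand, with the matched letters in capitals. POLA1 is read from chrX:24693741-24693820 (plus strand), MCM6 from chr2:135876490-135876569 (minus strand) and RFC3 from chr13:33818054-33818133 (plus strand).
POLA1: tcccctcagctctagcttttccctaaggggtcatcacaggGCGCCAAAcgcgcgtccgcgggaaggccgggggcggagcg
MCM6: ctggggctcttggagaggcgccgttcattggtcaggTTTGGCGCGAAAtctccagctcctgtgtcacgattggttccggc
RFC3: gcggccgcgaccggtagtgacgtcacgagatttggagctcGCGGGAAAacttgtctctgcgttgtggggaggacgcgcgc
MCM6 holds 2 overlapping matches, 1 on each strand, which share their central letters. Of the 16 replication genes that rose and have a promoter in the table, 6 held a match (37.5%), namely DTL, GINS2, MCM3, MCM6, POLA1 and RFC3. A match was found in 13 of 38 replication genes tested (34.2%), in 20 of 301 of all genes that rose (6.64%), in 12 of 400 that fell (3%), in 471 of 11448 tested genes (4.11%) and in 761 of all 27305 promoters (2.79%). The match is a description of the letters and not of a bound site.

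E2F1 differed by 0.18 between the times with estrogen (adjusted p = 0.5216). Of 15 tested genes of the E2F and pocket protein family, 2 rose and none fell, where 2.53% of all genes rose. The 2 were TFDP1, a dimer partner of the E2F proteins (0.38, adjusted p = 0.01239), and E2F5 (0.39). Neither passed without 24 h replicate 2, without 24 h replicate 3, without 4 h replicate 1 or without 4 h replicate 3, nor with the mean of its probe sets (0.18 in TFDP1 and 0.14 in E2F5).

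Of 32 nucleotide synthesis genes tested, 14 rose, none fell and 18 did not pass, where 2.53% of all genes rose. Their median was 0.28, while with vehicle none was called and the median was -0.06. The difference of the time changes passed in 8, all higher with estrogen, against 0.677% of all genes. IMPDH2, the rate-limiting enzyme of guanine nucleotide synthesis, was at 11.15, 11.01 and 11.03 at 24 h and at 10.44, 10.42 and 10.43 at 4 h. The 4 h arrays lay within 0.02 of each other and the 24 h arrays well above them, with a difference of 0.63 ± 0.08 (adjusted p = 0.0001013) that exceeded the vehicle change by 0.69 (adjusted p = 0.0046). PFAS and PAICS act on the pathway to inosine monophosphate. PFAS was at 7.36, 7.68 and 7.62 at 24 h and at 6.88 on all 3 arrays at 4 h, and rose by 0.68 ± 0.11 (adjusted p = 0.0005372). PAICS rose by 0.43 ± 0.07 (adjusted p = 0.0008563), with 11.66, 11.62 and 11.60 at 24 h and 11.17, 11.26 and 11.16 at 4 h, and by 0.27 with the mean of its probe sets, which passed.

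CTPS1, which makes CTP, rose by 0.60 ± 0.11 (adjusted p = 0.002451), HPRT1, of purine salvage, by 0.53 ± 0.10 (adjusted p = 0.004209; 0.24 and not passed with the mean of its probe sets), and DUT, which keeps uracil out of DNA, by 0.54 ± 0.10 (adjusted p = 0.004166). Among other genes that supply deoxynucleotides, DTYMK rose too. RRM1, RRM2, TYMS and TK1 did not pass, with differences of 0.18 in RRM1, 0.29 in RRM2, 0.27 in TYMS and 0.12 in TK1. The 14 became 8 without 24 h replicate 2, and 9 without 4 h replicate 1 or without 4 h replicate 2. The 8 became 3 without 24 h replicate 3, and 5 without vehicle 24 h replicate 1 or 3, without estrogen 24 h replicate 2, without estrogen 4 h replicate 2 or without the 3 arrays numbered apart.

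**Figure D3:**
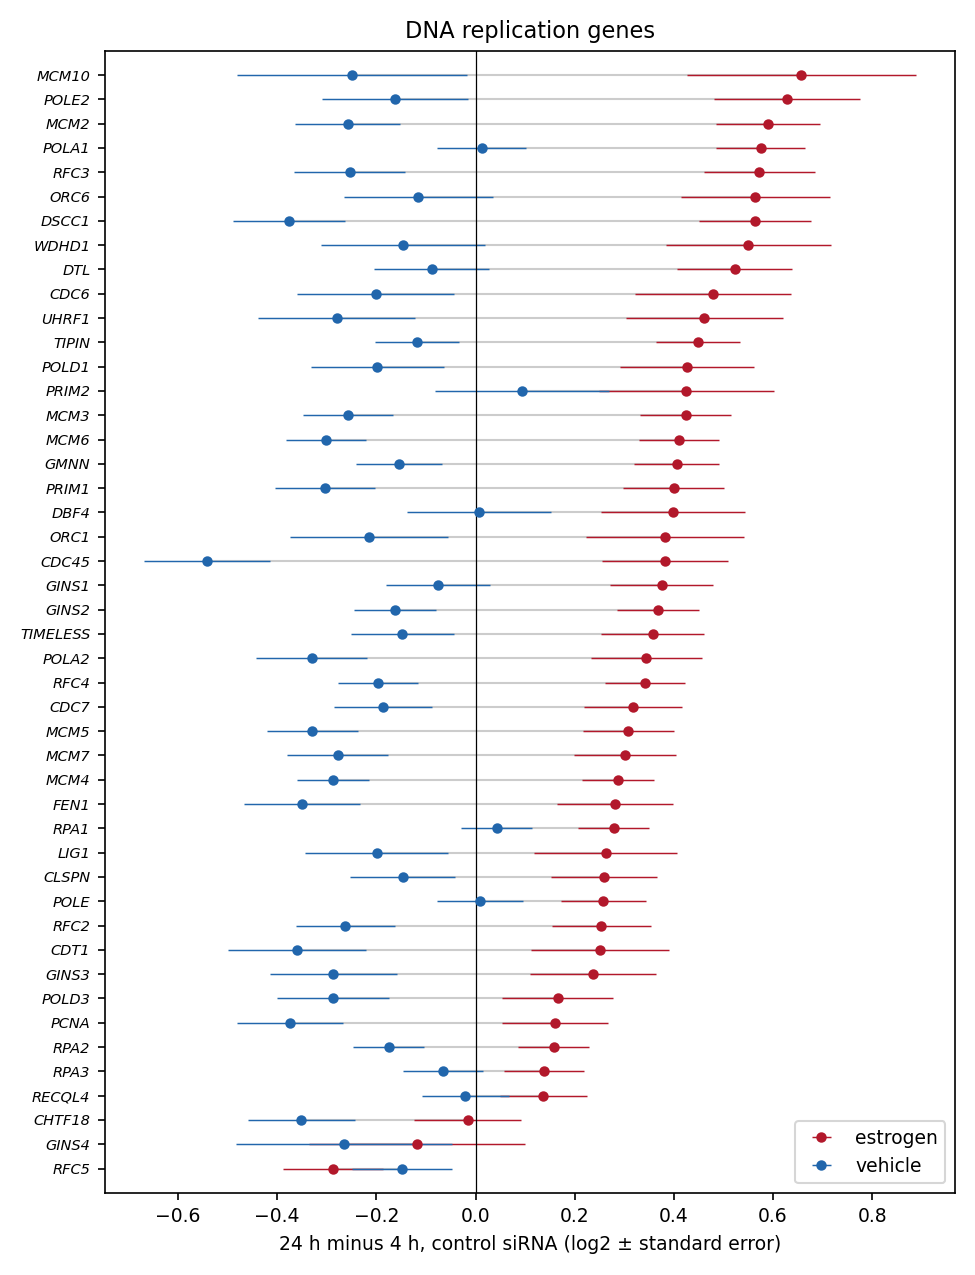
Log2 difference, 24 h minus 4 h, ± SE of the 46 DNA replication genes tested, with 10 nM estrogen and with vehicle, both with control siRNA, ordered by the estrogen value. With estrogen 43 of the 46 lie above 0, and MCM2, MCM6, RFC3 and DSCC1 lie above 0 with estrogen and below it with vehicle.

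All 45 mitosis genes tested had a difference above 0 with estrogen, of 0.13 to 0.69 with a median of 0.46. Of them 12 rose and none fell, where 2.53% of all genes rose. With vehicle the median was 0.10 and none was called, and the difference of the time changes passed in none, with a median of 0.32. MKI67, a marker of proliferating cells, was at 7.92, 8.17 and 8.21 at 24 h and at 7.39, 7.39 and 7.47 at 4 h, and rose by 0.69 ± 0.10 (adjusted p = 0.0002127). Its vehicle change was 0.24 (adjusted p of the difference 0.1322). TOP2A, the topoisomerase that untangles chromosomes, was at 10.33, 10.70 and 10.72 at 24 h, against 9.89, 9.92 and 10.11 at 4 h, and rose by 0.61 ± 0.14 (adjusted p = 0.01269). CDCA3, a cell division gene, rose by 0.67 ± 0.15 (adjusted p = 0.009474), and TPX2, a spindle assembly factor, by 0.62 ± 0.14 (adjusted p = 0.01307), whereas FOXM1, a transcription factor of this stage, differed by 0.28 (adjusted p = 0.2294).

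The mitosis calls depended on single arrays and on the processing. Over 21 other settings of the processing or of the arrays used, the count of 12 ranged from 1 to 35. In MKI67, TOP2A, TPX2 and CDCA3 24 h replicate 1 was the lowest of the 24 h arrays, and without it 22 of the 45 genes rose. It is 1 of the 3 arrays whose label numbers stand apart. The count was 2 without 24 h replicate 2, 1 without 24 h replicate 3, 4 without 4 h replicate 1, 1 without 4 h replicate 2 and 5 without 4 h replicate 3. TOP2A was lost in 4 of these, TPX2 in 3, CDCA3 in 2 (without 24 h replicate 3 and without 4 h replicate 2) and MKI67 in none.

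Promoters of mitosis genes are known for the CCAAT letters that NF-Y binds, and the stretches below are shown because they hold them in mitosis genes that rose. The letters searched were CCAAT on both strands of the same 250 bases, so that ATTGG is the match on the opposite strand. MKI67 is read from chr10:128126424-128126503, TOP2A from chr17:40417910-40417989 and CDCA3 from chr12:6851287-6851366, all on the minus strand.
MKI67: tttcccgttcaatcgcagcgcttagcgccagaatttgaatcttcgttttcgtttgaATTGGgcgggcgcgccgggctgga
TOP2A: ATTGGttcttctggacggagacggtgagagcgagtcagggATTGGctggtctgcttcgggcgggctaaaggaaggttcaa
CDCA3: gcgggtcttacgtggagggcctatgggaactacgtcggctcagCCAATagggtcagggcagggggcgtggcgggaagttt
CCAAT was found in 30 of 38 mitosis genes (78.9%) and in 6 of the 8 that rose and have a promoter (75%), against 34.5% of tested genes and 33% of all promoters. The E2F letters were found in 2 of the 38 mitosis genes (5.26%) and in none of the 8.

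Genes around the start of S phase were mixed. Of 16 tested, CCNE2, a cyclin of S phase entry (0.36, adjusted p = 0.02579), and SKP2, which targets the inhibitor p27 for breakdown (0.35, adjusted p = 0.01269), rose, while CCNG1 (-0.28, adjusted p = 0.01398) and CDKN1C fell. CCNE2 did not pass without 24 h replicate 2 or 3 or without 4 h replicate 1 or 2, and SKP2 did not without 24 h replicate 2 or 4 h replicate 1. Neither passed with the mean of its probe sets (0.29 in CCNE2 and 0.19 in SKP2). CDKN1C, which encodes the cyclin-dependent kinase inhibitor p57, was at 5.92, 5.82 and 6.04 at 24 h and at 6.77, 6.79 and 6.70 at 4 h. It fell by 0.83 ± 0.12 (adjusted p = 0.00036), its vehicle change was 0.17, and the time changes differed by -0.99 (adjusted p = 0.004839). With the mean of its probe sets the estrogen change was -0.29 (adjusted p = 0.08633) and the difference from vehicle -0.30 (adjusted p = 0.3924), so neither passed. The inhibitor CDKN1A (-0.88, adjusted p = 0.1153) and the cyclin CCND1 (-0.04) did not pass. Among 15 DNA repair genes, 3 rose and none fell, where 2.53% of all genes rose. The 3 were BRCA1 (0.53), RAD51C (0.49, and 0.28 with the mean of its probe sets, which passed) and CHEK1 (0.39). The count of 3 was 1 without 24 h replicate 2, and 0 without 24 h replicate 3 or without 4 h replicate 1.

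Ribosome biogenesis genes rose in 6 of 27 cases and fell in none, where 2.53% of all genes rose. Their median was 0.17 with estrogen and -0.05 with vehicle. NOLC1, a nucleolar assembly factor, was at 10.71, 10.69 and 10.68 at 24 h and at 10.26, 10.38 and 10.33 at 4 h, and rose by 0.37 ± 0.08 (adjusted p = 0.007357). FBL, the methyltransferase of ribosomal RNA, rose by 0.28 ± 0.06 (adjusted p = 0.01091), and its time change exceeded that with vehicle by 0.54 (adjusted p = 0.004101). The 6 became 2 without 24 h replicate 3, and FBL did not pass there. Of 18 chaperone genes, 2 rose, where 2.53% of all genes rose. The 2 were FKBP4, a co-chaperone of steroid receptors (0.45 ± 0.08, adjusted p = 0.002517), and HSPD1 (0.27). FKBP4 did not pass with the mean of its probe sets (0.22), and HSPD1 did not pass without 24 h replicate 2 or 3 or without any one of the 4 h arrays.

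The genes with the largest falls moved with vehicle too. CYP1A1, the classical target of the aryl hydrocarbon receptor, was at 8.87, 8.06 and 7.30 at 24 h and at 12.96, 12.07 and 12.11 at 4 h with estrogen, and at 9.56, 8.32 and 7.64 at 24 h and 13.18, 12.45 and 12.36 at 4 h with vehicle. Every 24 h array lay below every 4 h array in both treatments. The change was -4.31 ± 0.44 with estrogen, 19.8-fold lower at 24 h (adjusted p = 4.186e-06), and -4.15 with vehicle (adjusted p = 3.88e-05), and the 2 differed by -0.15 (adjusted p = 0.9631). CYP1B1 was at 9.17, 8.84 and 8.67 at 24 h, against 12.15, 11.31 and 11.00 at 4 h, with estrogen. It fell by 2.60 ± 0.42 with estrogen, or 6.04-fold (adjusted p = 0.0007064), and it fell by 3.46 with vehicle (adjusted p = 0.0002084). Of 9 tested genes of this receptor's pathway, 3 fell with estrogen and 4 with vehicle. The third with estrogen was TIPARP, a feedback inhibitor of the receptor (-0.82, adjusted p = 0.0374), which did not pass without 24 h replicate 2 or 3 or without 4 h replicate 1 or 2.

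**Figure D4:**
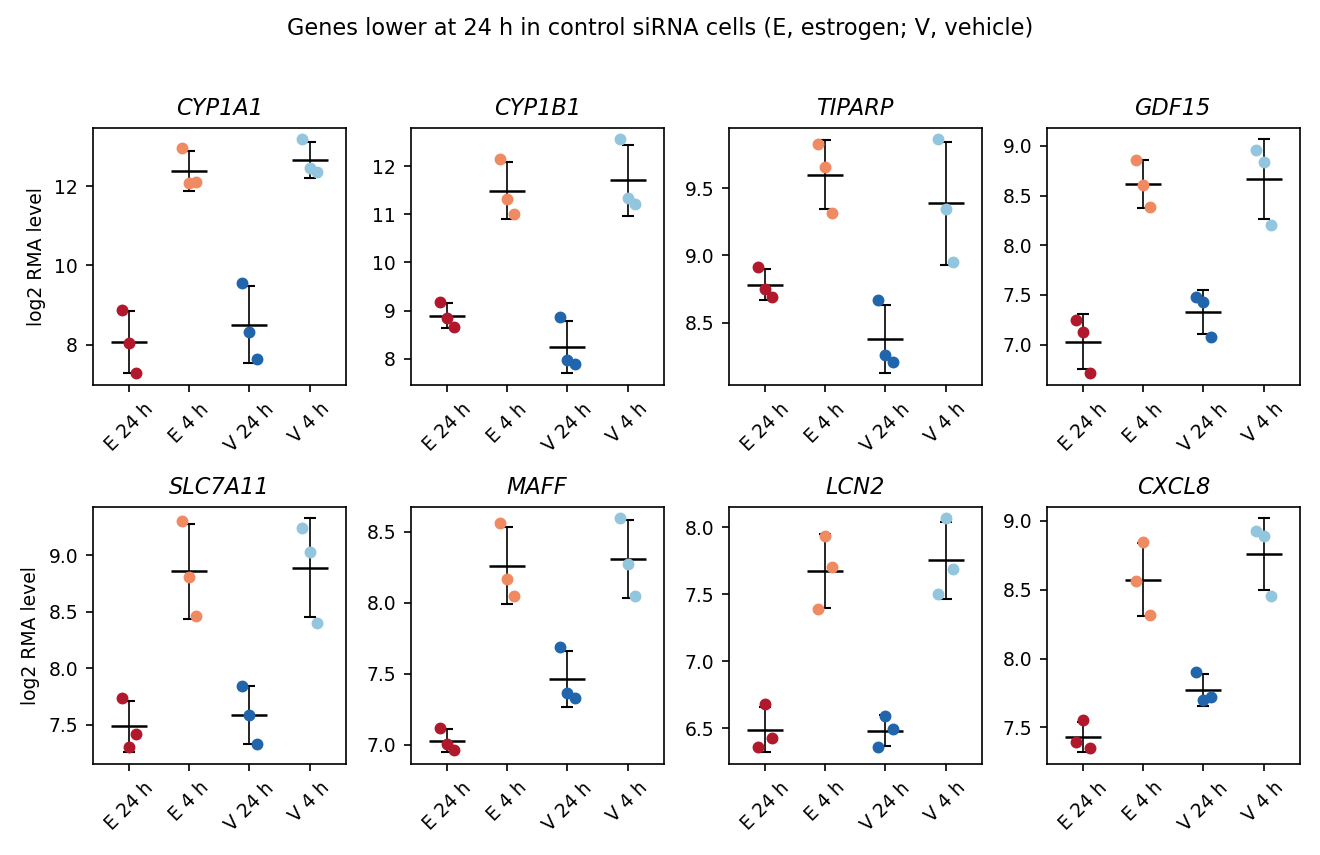
Log2 level of genes that fell between 4 h and 24 h of estrogen, on each control siRNA array with estrogen (E) and vehicle (V); points are single arrays, and lines and bars are means ± SD (n = 3). In CYP1A1, CYP1B1 and LCN2 the 24 h arrays lie below the 4 h arrays with both treatments.

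Among the other genes that fell by more than 2-fold were GDF15, MAFF and LCN2. GDF15, a stress cytokine, was at 7.25, 7.13 and 6.72 at 24 h and at 8.86, 8.60 and 8.39 at 4 h, and fell by 1.59 ± 0.33 (adjusted p = 0.006664), where the vehicle change was -1.34 (adjusted p = 0.06142). The mean of the GDF15 probe sets changed by -0.68 and passed. MAFF, a stress-induced bZIP factor, was at 7.12, 7.01 and 6.96 at 24 h and at 8.56, 8.17 and 8.05 at 4 h, and fell by 1.23 ± 0.24 (adjusted p = 0.003816). LCN2, a secreted iron-siderophore binding protein, was at 6.36, 6.68 and 6.43 at 24 h and at 7.39, 7.94 and 7.70 at 4 h. It fell by 1.18 ± 0.22 with estrogen (adjusted p = 0.003023) and by 1.27 with vehicle (adjusted p = 0.01389). The chemokine CXCL8 fell by 1.14 ± 0.27 (adjusted p = 0.01398), but not without 24 h replicate 3 or without 4 h replicate 2. SLC7A11, a cystine transporter, fell by 1.37 (adjusted p = 0.04214), but not without 24 h replicate 2 or 3, without any one of the 4 h arrays or with the mean of its probe sets (-0.94).

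Of 28 genes of the ATF4 and unfolded protein responses, 6 fell and 1 rose, where 3.43% of all genes fell and 2.53% rose. With vehicle none of the 28 was called. The medians were -0.23 with estrogen and -0.17 with vehicle, and the difference of the time changes passed in none. HSPA5, the main chaperone of the endoplasmic reticulum, was at 12.44, 12.41 and 12.35 at 24 h, against 13.01, 13.11 and 12.80 at 4 h, and fell by 0.57 ± 0.12 (adjusted p = 0.005089). HERPUD1, of the degradation of misfolded proteins, fell by 0.40 (adjusted p = 0.003983). PSAT1, of serine synthesis, was the gene that rose (0.36), and ATF4 itself differed by -0.26 without passing. The 6 became 2 without 24 h replicate 2 or 3 or without 4 h replicate 1 or 2, and PSAT1 did not pass without 24 h replicate 3 or without 4 h replicate 1. With the mean of their probe sets neither HERPUD1 (-0.28) nor PSAT1 (0.28) passed.

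Among 30 genes of MAPK signalling and the immediate early response, 7 fell and 1 rose, where 3.43% of all genes fell. With vehicle 1 fell and none rose. The medians were -0.18 with estrogen and -0.14 with vehicle, and the difference of the time changes passed in none. IER3, an early survival gene, was at 9.48, 9.14 and 8.93 at 24 h and at 10.18, 9.81 and 9.83 at 4 h, and fell by 0.76 ± 0.13 (adjusted p = 0.001632). EGR3, an early zinc finger factor that is also induced by estrogen, was the one that rose (0.75, adjusted p = 0.03548), with overlapping arrays, and EGR1 differed by -0.52 without passing. The 7 became 4 without 24 h replicate 1 and 2 without 24 h replicate 2 or 3 or without 4 h replicate 1 or 2, and EGR3 did not pass without 24 h replicate 2 or 3 or without 4 h replicate 1 or 3. Of 16 p53 target genes 4 fell and none rose, where 3.43% of all genes fell. With vehicle 2 of the 16 fell and 1 rose. Their medians were -0.25 with estrogen and -0.29 with vehicle. The difference of the time changes passed in 1 of the 16, and in 0 with the mean of probe sets. The count of 4 was 2 without 24 h replicate 1, 1 without 24 h replicate 2, and 2 without 4 h replicate 1 or 2.

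For other genes that fell, the change was lower with estrogen than with vehicle. PINK1, the kinase that marks damaged mitochondria, was at 8.15, 8.11 and 8.11 at 24 h and at 8.54, 8.78 and 8.75 at 4 h with estrogen. It fell by 0.57 ± 0.08 (adjusted p = 0.0001539), its vehicle change was 0.07, and the time changes differed by -0.63 (adjusted p = 0.004674), a difference that did not pass with the mean of its probe sets (-0.32, adjusted p = 0.09431). TP53INP1, which acts in autophagy and cell death, fell by 0.51 (adjusted p = 0.01212), against a vehicle change of 0.31, a difference of -0.82 (adjusted p = 0.01364). It did not pass the estrogen test without 24 h replicate 2 or 4 h replicate 2, and with the mean of its probe sets neither the fall (-0.20, adjusted p = 0.1497) nor the difference (-0.36, adjusted p = 0.1307) passed. TP53INP2, an autophagy regulator, was at 9.13, 8.88 and 8.57 at 24 h and at 10.06, 10.28 and 10.07 at 4 h. It fell by 1.28 ± 0.12 (adjusted p = 2.284e-06), by 0.85 more than with vehicle (adjusted p = 0.01534), and that comparison with vehicle was lost without estrogen 24 h replicate 3, estrogen 4 h replicate 2 or vehicle 4 h replicate 3.

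PINK1 and TP53INP1 belong to a list of 22 genes induced by the FOXO factors or in resting cells. Of the 22, 5 fell with estrogen and none rose, where 3.43% of all genes fell, while with vehicle 2 rose and none fell. The medians were -0.22 with estrogen and 0.10 with vehicle. The difference of the time changes passed in 3, GABARAPL1 (-0.66, adjusted p = 0.034), PINK1 and TP53INP1, all lower with estrogen. With the mean of probe sets none of those 3 passed (GABARAPL1 -0.42, adjusted p = 0.2878), and the list's count was 1. The 5 became 3 without 24 h replicate 2 or without 4 h replicate 2. Lysosome and autophagy genes fell in 6 of 23 cases and rose in none, where 3.43% of all genes fell. Their median was -0.21 with estrogen and -0.07 with vehicle. GABARAPL1, of the autophagosome membrane, was at 7.08, 6.97 and 6.79 at 24 h, against 7.76, 7.93 and 7.75 at 4 h, and fell by 0.86 ± 0.11 (adjusted p = 5.881e-05). WIPI1, an early autophagosome protein, was at 8.06, 8.14 and 8.03 at 24 h, against 8.88, 9.13 and 8.76 at 4 h, and fell by 0.85 ± 0.13 (adjusted p = 0.00036). In both the times did not overlap. WIPI1 fell with vehicle too, by 0.58 (adjusted p = 0.03254), and NEU1, CTSL and MAP1LC3B fell by 0.51, 0.51 and 0.41 with estrogen, where CTSL did not pass without 24 h replicate 3 or 4 h replicate 1 and MAP1LC3B did not without 4 h replicate 2.

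Of 32 tested genes on a list of estrogen-repressed genes, 6 fell and none rose with estrogen, where 3.43% of all genes fell. With vehicle 2 fell and none rose. The medians were -0.25 with estrogen and -0.02 with vehicle, and the difference of the time changes passed in 1. PSCA, a surface antigen, was at 7.46, 6.75 and 6.86 at 24 h and at 7.95, 7.90 and 7.87 at 4 h, and fell by 0.88 ± 0.14 (adjusted p = 0.0008662). Its time change was below that with vehicle by 1.15 (difference -1.15, adjusted p = 0.005189). IL1R1, a receptor of interleukin 1, fell by 0.54 ± 0.10 (adjusted p = 0.002397). The 6 became 3 without 24 h replicate 2, 2 without 24 h replicate 3 and 3 without 4 h replicate 1 or 2.

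The largest differences in which the change was lower with estrogen than with vehicle were in CBLN2, PSCA, ERBB4, SOCS2-AS1 and UBE2QL1. CBLN2, a secreted synapse organiser, was at 6.54, 6.43 and 6.22 at 24 h and at 7.24, 7.59 and 6.74 at 4 h with estrogen, and at 8.94, 8.64 and 8.88 at 24 h and 7.73, 8.14 and 7.39 at 4 h with vehicle. It fell with estrogen (-0.80, adjusted p = 0.04105), which was lost without 24 h replicate 2 or 3 or without 4 h replicate 1 or 2, and rose with vehicle (1.07, adjusted p = 0.02896), and the changes differed by -1.86 (adjusted p = 0.0046). ERBB4, a receptor of the HER family, was at 5.90, 5.86 and 5.68 at 24 h and at 6.17, 6.48 and 6.28 at 4 h with estrogen. Its change was -0.50 with estrogen (adjusted p = 0.05673) and 0.65 with vehicle (adjusted p = 0.04683), a difference of -1.15 (adjusted p = 0.008087) that did not pass with the mean of its probe sets (-0.53, adjusted p = 0.06805). STS, the enzyme that frees estrogens and other steroids from their sulfates, fell by 0.68 ± 0.12 with estrogen (adjusted p = 0.001454), a difference of -1.01 from its vehicle change (adjusted p = 0.004101). HES1, a NOTCH target, fell by 0.49 ± 0.08 (adjusted p = 0.001015), a difference of -0.68 from its vehicle change (adjusted p = 0.004262). The estrogen change of HES1 was -0.30 with the mean of its probe sets and passed.

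Hypoxia and glycolysis genes fell in 4 of 34 cases and rose in none, where 3.43% of all genes fell, and their median was -0.04 with estrogen and -0.04 with vehicle. NDRG1, a stress-induced differentiation gene, was at 9.17, 9.10 and 9.16 at 24 h and at 9.81, 9.75 and 9.72 at 4 h, and fell by 0.61 ± 0.10 (adjusted p = 0.0008281). DDIT4, an inhibitor of mTORC1, fell by 0.69 (adjusted p = 0.0006717). HK2, a hexokinase, fell by 0.29, but with the mean of its probe sets the difference was 0.126. None of 14 HER family and ligand genes was called, nor any of the 7 genes tested of other cell types. The counts that follow stand beside shares over all genes of 2.53% that rose and 3.43% that fell, and nothing is read from them. There was 1 call each among the 21 cholesterol genes (1 fell), the 13 fatty acid genes (1 rose), the 26 mitochondrial ribosomal genes (1 rose), the 17 clock genes (1 fell), the 10 histone genes (1 rose) and the 14 steroid receptor and coregulator genes (1 rose). The 17 TGF-beta and BMP genes had 2 that fell, the 16 NOTCH and WNT genes and the 16 amino acid transporters 1 each way, the 21 luminal genes 1 that fell and the 6 basal and mesenchymal genes 1 that rose. Of 15 apoptosis regulators 3 fell, which became 1 without 24 h replicate 2 or 3 or without 4 h replicate 1.

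**Figure D5:**
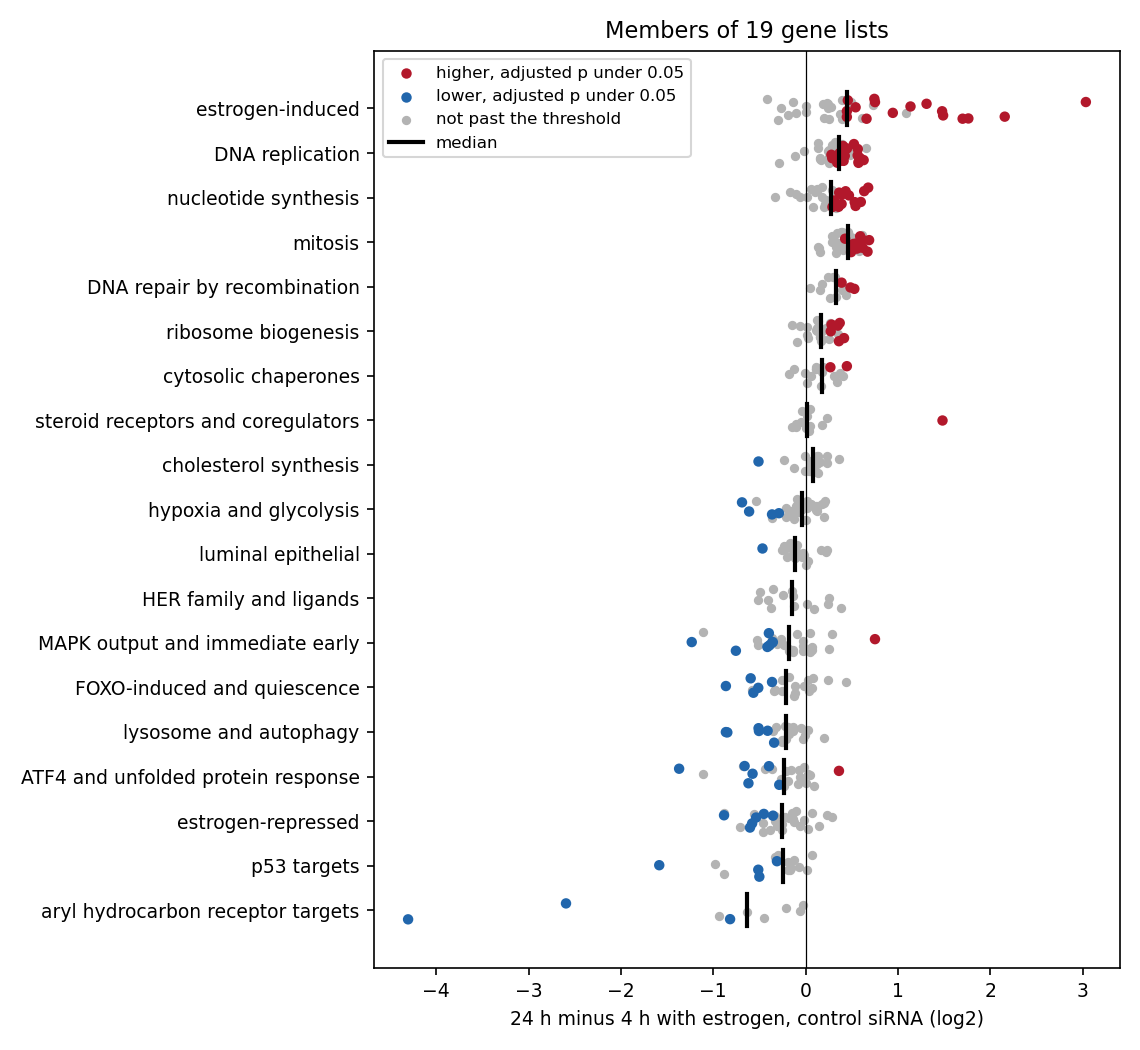
Log2 difference, 24 h minus 4 h with estrogen and control siRNA, of every tested member of 19 gene lists; each point is a gene, coloured where it was called, and each black bar is a list's median. The medians of the DNA replication and mitosis genes stand at 0.36 and 0.46, and CYP1A1 and CYP1B1 lie farthest to the left.

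The same time comparison was made in HER2 siRNA cells with estrogen, which shares no array with the control siRNA one. ERBB2 was at 12.33 ± 0.11 at 24 h and 12.21 ± 0.10 at 4 h with HER2 siRNA, against 13.42 ± 0.04 at 24 h and 13.56 ± 0.07 at 4 h with control siRNA (SD, n = 3 each). The gap between the 3′ and 5′ probe sets of ACTB was 2.302 on HER2 siRNA estrogen 4 h replicate 1, the largest of the 24 arrays. It was 1.325 on replicate 2 and 0.935 on replicate 3 of that group. The list counts with HER2 siRNA were not repeated without replicate 1. Another HER2 siRNA estrogen array, 4 h replicate 3, carries 24 h in 1 label and 4 h in its others, and was used as 4 h. In these cells 890 genes were called (6.21%, and 903 without that array), 438 higher (3.06%) and 452 lower (3.15%). Of the 363 genes that rose with control siRNA, 148 also rose with HER2 siRNA (40.8% of the control siRNA list and 33.8% of the HER2 siRNA list), and of the 492 that fell, 160 also fell (32.5% and 35.4%). The median differences of these 363 and 492 genes, which were chosen on the control siRNA arrays, were 0.28 and -0.22 with HER2 siRNA. The same sign was seen in 339 and 427 of them. Without the array with 2 time labels, 137 rises and 143 falls were shared. Pearson's r over all genes was 0.564 (0.543 without that array) and Spearman's rho 0.463.

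The difference of the time changes, control siRNA minus HER2 siRNA, passed for 32 genes (0.223%), 5 with the higher change in control siRNA cells (0.0349%) and 27 with the lower (0.188%). Without HER2 siRNA estrogen 4 h replicate 1 the number was 24, and without 4 h replicate 2 it was 21. Without the array with 2 time labels 42 genes passed. DNA replication genes rose in 18 of 46 cases with either siRNA (16 with HER2 siRNA without that array), with medians of 0.36 with control siRNA and 0.32 with HER2 siRNA, where 1 fell. The mitosis genes, whose median was 0.46 with control siRNA, had a median of -0.02 with HER2 siRNA, where none was called. All 45 had the higher change with control siRNA, by a median of 0.48, with and without that array, and the test of that difference passed in none of them. KLK10, a kallikrein protease, changed by 0.68 with control siRNA and 2.21 with HER2 siRNA, a difference of -1.53 (adjusted p = 0.003431). STC2, a secreted glycoprotein hormone induced by estrogen and stress, changed by -0.20 with control siRNA and 1.51 with HER2 siRNA, a difference of -1.70 (adjusted p = 0.007504). SCD, the desaturase of fatty acid synthesis, changed by -0.12 with control siRNA and -0.77 with HER2 siRNA, a difference of 0.65 (adjusted p = 0.007054). Without the array with 2 time labels these differences were -1.53 in KLK10, -1.94 in STC2 and 0.70 in SCD, and all passed. With the mean of its probe sets the difference was -0.82 in KLK10, which passed, and 0.51 in SCD, which did not. The KLK10 change with control siRNA, called at 0.68 (adjusted p = 0.0161), was then 0.35 and did not pass (adjusted p = 0.08887).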

How the data were processed

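Total RNA from 24 BT-474 samples was labelled with a 3′ IVT kit and hybridised to 1 array each, per the labels. The authors deposited log2 values per probe set, made with RMA (no version is given in the sources used here); RMA corrects background, equalises the arrays' distributions and summarises probes, so that a shift common to all genes is removed. The array medians were 5.28 to 5.359, and the number of arrays limits the precision.

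Of 54675 probe sets, 41091 carried 1 gene symbol, 1801 several and 11721 none in the platform annotation, and 62 were controls; those with several or no symbol were left out. Symbols of 41037 matched RefSeq. Groups were taken from the labels. One model in limma 3.58.1 (R 4.3.3) was fitted to 8 group means over 24 arrays, with an empirical Bayes prior and 16 residual degrees of freedom, and p-values were adjusted over all 14335 genes. The test was checked on simulated data. The text names up to 15 genes each way with the largest difference among called genes whose arrays do not overlap. It names up to 6 members per list with the smallest adjusted p, and members that did not pass where the rest did. For each difference of time changes it names up to 10 each way. ERBB2, ESR1, E2F1, MYC, PGR, GAPDH and ACTB were also set to be named. RARA was named as a member of the estrogen list without a call, although most of that list did not pass. The members and lists were chosen with earlier results of these data known. The lists are 32, with 790 entries, of which 681 were tested; 47 fell under the filter and 62 lacked a probe set of 1 symbol. Promoters come from RefSeq (GRCh38.p14), the first listed start of each gene.

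The replicate numbers of the labels were checked for pairing: the deviations of same-numbered arrays correlated at 0.38, 0.097 and 0.116 between 24 h and 4 h, which did not meet the limit of 0.1 for every pair, so no block was used. Differently numbered arrays correlated at -0.242 to 0.134 there. In the other pairs of groups checked, same-numbered arrays correlated at 0.057 to 0.414 and differently numbered ones at -0.454 to 0.226. Every same-numbered correlation was thus above 0, though not every one reached the limit. With the block 1437 genes were called for estrogen, among them all 855 called without it. Some genes said here not to have passed would therefore pass with a block. Alternatives were the filter, the probe set rule, scaling, covariates, array weights and leaving out arrays. The 3 arrays with label numbers apart from the other 21 were vehicle 24 h replicate 1 and estrogen 24 h replicate 1 of control siRNA and estrogen 4 h replicate 1 of HER2 siRNA.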

Additional observations from a re-analysis of the deposited data

Results flagged for a closer look

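The change between 4 h and 24 h was different with estrogen than with vehicle in control siRNA cells for 183 genes, by the limma test of the difference of the time changes. The largest differences, estrogen minus vehicle, were 3.58 in TCN1, 2.09 in SLC6A14, 2.09 in SUSD3, 2.00 in TFF1 and 1.68 in KLK11 on the higher side. On the lower side they were -1.86 in CBLN2, -1.15 in PSCA, -1.15 in ERBB4, -1.12 in SOCS2-AS1 and -1.03 in UBE2QL1. With the mean of its probe sets, ERBB4 did not pass this test (-0.53, adjusted p = 0.06805). Among the gene lists, the same test passed in 15 DNA replication genes, 8 nucleotide synthesis genes and 8 estrogen-induced genes.

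The change differed between control siRNA and HER2 siRNA cells with estrogen for 32 genes by the same kind of test. The differences, control siRNA minus HER2 siRNA, were 1.09 in PMAIP1, 0.75 in MT1X, 0.69 in PROM2, 0.65 in MB and 0.65 in SCD. They were -1.82 in ALPP, -1.70 in STC2, -1.59 in DSCAM-AS1, -1.55 in CCR2 and -1.53 in KLK10. With the mean of their probe sets, MT1X (0.54, adjusted p = 0.1318), PROM2 (0.19, adjusted p = 0.7) and SCD (0.51) did not pass this test.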

How the results depend on the processing

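The number of genes called between 24 h and 4 h of estrogen was 855. It was 1876 with array weights and 439 with only the groups compared in the fit, and 296 to 991 when 1 array was left out. The vehicle count of 112 was 187 with a filter at a log2 level of 7, 260 with the label number series as a covariate, 43 without the 3 arrays numbered apart, 173 with every probe set, 43 with only the groups compared, 379 with array weights, 225 with the ACTB 3′ minus 5′ gap as a covariate (added after the data were seen) and 6 to 60 with 1 array left out. The difference of the time changes between estrogen and vehicle, 183 genes, was 278 with the stricter filter, 111 without the 3 arrays, 490 with array weights and 91 to 182 with 1 array left out. That between control and HER2 siRNA, 32 genes, was 10 without the 3 arrays, 20 with only the groups compared, 50 with an intensity trend and robust prior, 90 with array weights and 21 to 42 with 1 array left out.

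With the replicate number as a block the counts were 1437 for estrogen, 448 for vehicle, 450 for estrogen against vehicle and 106 for control against HER2 siRNA. With the block and the number series they were 1425, 400, 414 and 77. The labels do not state that the numbers pair the arrays. The cause of these shifts was not tested, other than that fewer arrays or groups leave fewer degrees of freedom.

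Of 181 results on named genes, 83 kept their side of the threshold under every alternative run. Of 4155 values under alternatives, 3661 kept direction and side, 493 kept direction and lost the call, and 1 changed sign: HK2, at -0.29, was 0.126 with the mean of its probe sets, and the cause was not tested. Of 177 results on named genes with a value under the mean of probe sets, 33 lost the call there. Where the text states such a result for a gene by name, the loss is given with it. Counts over lists moved by more than 1.5 times in 310 of 1269 values. The share of higher calls, 42.5%, was 39.9% with equal array medians, 47.1% with quantile normalization and 53.2% without 4 h replicate 2.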

Other observations

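BEX4, a member of the BEX gene family, was at 4.15, 4.21 and 4.36 at 24 h and at 5.12, 5.56 and 5.23 at 4 h with estrogen, and fell by 1.06 ± 0.13 (adjusted p = 4.454e-05, limma). Its 24 h arrays lay below the log2 level of 5 used as the filter. It also fell with vehicle (-0.63, adjusted p = 0.0242). CEACAM1, a cell adhesion molecule, fell by 0.98 ± 0.15 (adjusted p = 0.0005239), with 5.53, 5.80 and 5.24 at 24 h and 6.71, 6.58 and 6.20 at 4 h. RIPOR3 fell by 1.14 ± 0.17 (adjusted p = 0.00036), with 6.75, 6.96 and 6.89 at 24 h and 8.09, 7.79 and 8.14 at 4 h. With the mean of their probe sets CEACAM1 changed by -0.35 and RIPOR3 by -0.46, and both passed.

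THSD4, a matrix protein that binds fibrillin, was at 9.23, 9.59 and 9.55 at 24 h and at 8.34, 8.35 and 8.25 at 4 h with estrogen. It rose by 1.14 ± 0.11 (adjusted p = 2.284e-06), and its time change exceeded that with vehicle by 1.22 (adjusted p = 0.0003085). With the mean of its probe sets the rise was 0.43 and passed, and the difference from vehicle was 0.41 (adjusted p = 0.09029) and did not.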
